A study of Mus musculus with 12 samples.

Results

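The genes described are 10 genes of Toll-like receptor, interleukin 1 (IL1) and tumor necrosis factor (TNF) signaling: Tlr2, Tlr4, Cd14, Myd88, Il1b, Il1r1, Nfkbia, Tnf, Tnfrsf1a and Tnfrsf12a. They were chosen by name, with earlier results of these data known, as were the gene lists used below. All 10 of 10 were found among the 44345 gene names of the table of read counts. RNA came from whole sciatic (L4 to L6) dorsal root ganglia (DRG) of C57BL/6 mice aged 5 to 8 weeks, where a sample pools ganglia from 2 mice and a group has 3 samples. SH Sham mice spent 10 days in standard housing (SH) and then had sham surgery. SH SNA mice had the same housing followed by a sciatic nerve axotomy (SNA), which cuts the peripheral axons of these neurons. EE Sham mice spent the 10 days in an enriched environment (EE), that is larger cages shared by more mice, with extra nesting material, an igloo with a running wheel, a hanging tunnel, wooden objects that were exchanged and food for foraging, before sham surgery, and EE + SNA mice had EE followed by the axotomy. Ganglia were collected 24 h after surgery in all 4 groups. A sample of whole ganglion holds neurons, satellite glia, Schwann cells, vessels and resident immune cells, so a value describes their mixture, and more cells of a type cannot be told apart from more RNA per cell. The paper describes EE Sham as coming from an earlier dataset while the labels list it without a batch. A batch of that kind and the effect of EE on its own cannot be told apart. The same holds for the comparison of EE + SNA with EE Sham and for the interaction of housing and surgery.

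Toll-like receptors sense microbial products and molecules released by damaged cells, and the IL1 receptor shares their intracellular signaling domain and their adaptor, MyD88. TNF receptors use other adaptors, but the branches meet at the kinases that release the transcription factor NF-kB from its inhibitor IkB-alpha, the product of Nfkbia. In DRG these pathways are known for the signals exchanged between injured neurons, glia and macrophages. Tnfrsf12a encodes Fn14, the receptor of the TNF family ligand TWEAK, and is known to be induced by growth factors and tissue injury.

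Reads on genes numbered 11343579 to 22871460 in a sample. The libraries were those of DRG: summed over 10 sensory neuron genes, the normalised read count (CPM) was 12590 to 14970 in the 12 samples. CPM is a count scaled to its library total over the tested genes and to the TMM factor of that library. The labels of the axotomy groups were checked with 6 axotomy response genes, all of which rose in SH SNA and in EE + SNA against SH Sham, Atf3 by 2.12 and 2.02 on the log2 scale. In the tests below, a gene is said to have risen or fallen if its edgeR P-value, adjusted by Benjamini-Hochberg over the 16238 genes tested, is below 0.05. Values with an unadjusted P-value below 0.05, the threshold used in the paper, are given as such. Of the 10 genes, 9 passed the filter on low counts. Tnf did not, and was not tested.

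After SNA the receptors of the TNF and IL1 branches rose, whereas the Toll-like receptors, the inhibitor Nfkbia and the cytokine Il1b did not pass the test against SH Sham. In SH SNA, 3 of the 9 tested genes rose (Tnfrsf12a, Il1r1 and Tnfrsf1a) and 0 fell, where 6.06% of all tested genes rose. In EE + SNA, 5 rose (the same 3 with Myd88 and Cd14) and 0 fell, against 6.87% of all tested genes that rose. Tnfrsf12a was the gene with the largest difference in both comparisons, at 2.54-fold in SH SNA and 2.51-fold in EE + SNA. At the unadjusted threshold 5 of the 9 genes were higher in each SNA group, and 0 lower, beside 13.4% and 14.7% of all tested genes that were higher. Each sample of SH SNA and each of EE + SNA lay above each SH Sham sample for the same 5 genes, a separation found in that direction for 14.3% and 16.1% of all tested genes. The median log2 fold change of the 9 genes was 0.29 in SH SNA and 0.38 in EE + SNA, beside 0.0047 over all tested genes in each. The comparisons share the SH Sham samples, so they are not independent of each other.

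**Figure D1:**
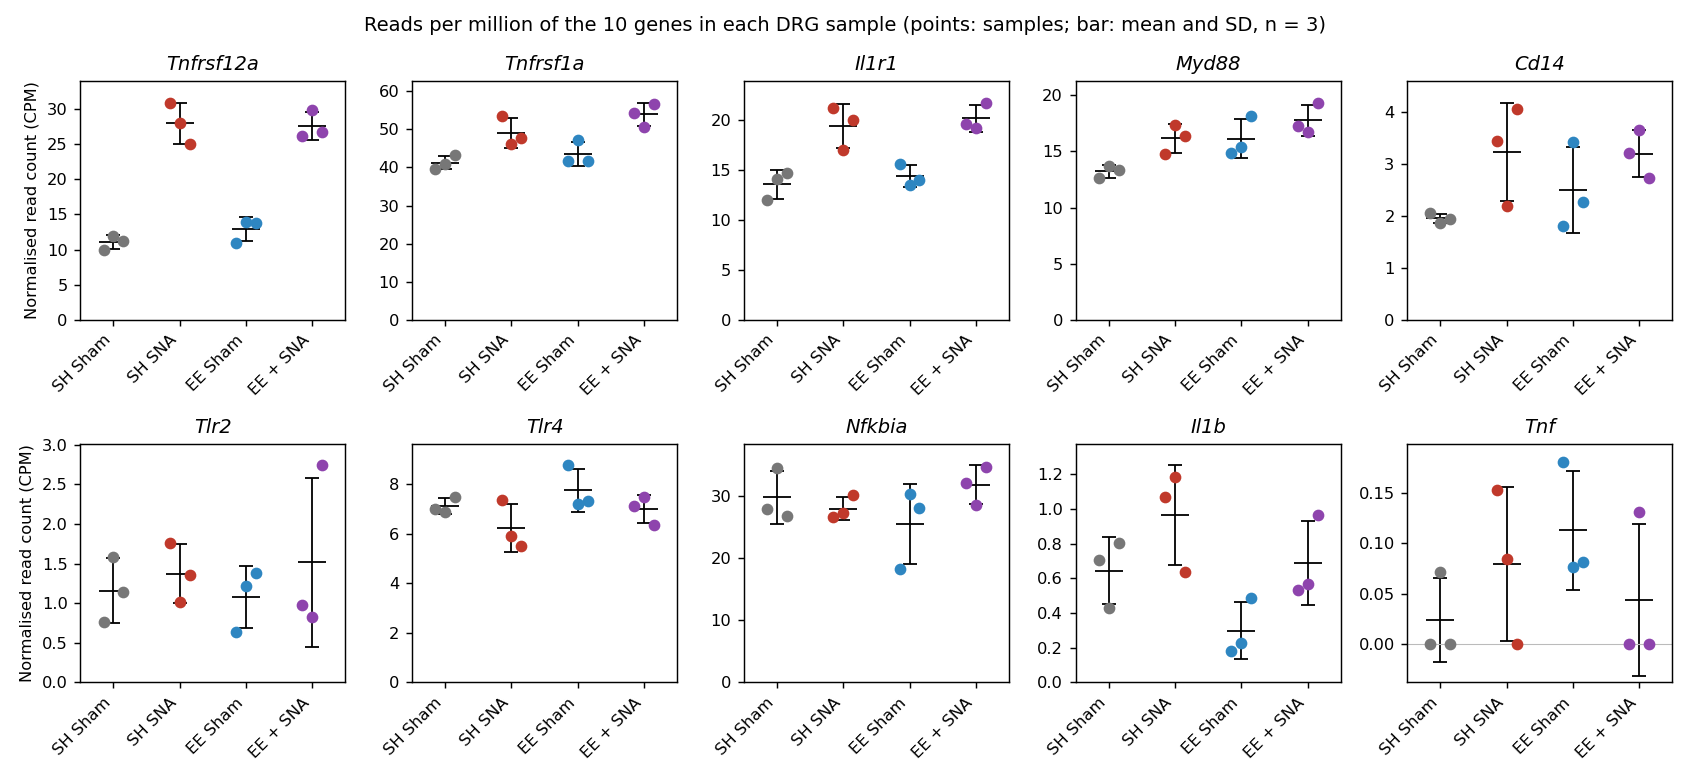
Normalised read count (CPM, vertical axes from 0, or just below 0 for Tnf) of each of the 10 genes in the 12 DRG samples by group. Points are samples and the bars give the mean and SD (n = 3); for Tnfrsf12a the sham samples lie between 9.97 and 14.0 CPM and the SNA samples between 25.1 and 30.9.

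Tnfrsf12a separated sham from axotomy most widely. Its values were 9.97, 11.9 and 11.2 CPM in SH Sham, 30.9, 27.97 and 25.1 in SH SNA, 10.9, 14.0 and 13.8 in EE Sham and 26.2, 29.9 and 26.7 in EE + SNA. Every SNA sample stood above every sham sample, and samples of EE + SNA lay within the range of SH SNA. The log2 fold change was 1.35 in SH SNA (standard error 0.11, adjusted P = 1.02e-05), 1.33 in EE + SNA against SH Sham (standard error 0.099, adjusted P = 7.26e-06) and 1.09 in EE + SNA against EE Sham (standard error 0.11, adjusted P = 0.000312). By P-value it was in place 45 of 16238 genes in SH SNA and in place 17 in EE + SNA against SH Sham. The rise was called in each of 15 alternative analyses of each of these comparisons. Tnfrsf12a (ENSMUSG00000023905) lies on chromosome 17 of GRCm38, from 23675445 to 23677468 on the minus strand.

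Tnfrsf1a, the gene of TNF receptor 1 (chromosome 6, 125349362 to 125362484), was among the most abundant of the 10. It was read at 39.6, 41.0 and 43.2 CPM in SH Sham and at 53.6, 46.0 and 47.7 in SH SNA. EE Sham gave 41.8, 47.3 and 41.6 CPM and EE + SNA 54.4, 50.6 and 56.7. Each SNA sample was above each SH Sham sample, whereas the highest EE Sham sample exceeded the lowest SH SNA sample. The difference was small, with a log2 fold change of 0.25 in SH SNA (standard error 0.075, adjusted P = 0.0472) and 0.38 in EE + SNA (standard error 0.068, adjusted P = 0.00332). The call in SH SNA was at the threshold: it was made in 4 of 15 alternatives, with adjusted P-values between 0.0294 and 0.199, while that in EE + SNA was made in 15 of 15. The ligand Tnf (chromosome 17, 35199381 to 35202007) was barely read. It had 0, 1 and 0 reads in SH Sham, 2, 1 and 0 in SH SNA, 2, 1 and 1 in EE Sham and 0, 3 and 0 in EE + SNA, 11 reads in 12 samples. A count of 0 allows up to 0.176 to 0.267 CPM in the samples concerned, taken as 3 reads, so a change of Tnf within a few reads of this limit was not detectable at this depth.

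Il1r1 encodes the receptor that binds IL1 and lies on chromosome 1 (40225080 to 40317257). Its values were 11.97, 14.1 and 14.7 CPM in SH Sham, 21.3, 17.0 and 20.1 in SH SNA, 15.6, 13.5 and 14.1 in EE Sham and 19.7, 19.2 and 21.8 in EE + SNA. As for Tnfrsf12a, every SNA sample was above every sham sample. Il1r1 rose by 0.52 on the log2 scale in SH SNA (standard error 0.11, adjusted P = 0.0112), by 0.57 in EE + SNA against SH Sham (standard error 0.10, adjusted P = 0.00369) and by 0.48 in EE + SNA against EE Sham (standard error 0.099, adjusted P = 0.0162). The SH SNA call was lost without SH Sham replicate 1 (adjusted P = 0.0512) or without SH SNA replicate 1 (adjusted P = 0.0529).

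Il1b, the gene of the cytokine IL1-beta (chromosome 2, 129364570 to 129371139), rests on 2 to 14 reads per sample. SH Sham had 12, 6 and 12 reads, SH SNA 14, 14 and 8, EE Sham 2, 3 and 6 and EE + SNA 6, 13 and 12. EE Sham was lowest, at 0.299 CPM ± 0.165 (SD, n = 3), beside 0.646 ± 0.193 in SH Sham, 0.963 ± 0.288 in SH SNA and 0.689 ± 0.241 in EE + SNA. Its log2 fold change was −1.09 in EE Sham against SH Sham (unadjusted P = 0.0529, adjusted P = 0.9999) and 1.13 in EE + SNA against EE Sham (unadjusted P = 0.0428, adjusted P = 0.225). Neither was called after adjustment, and in each sample the counting error alone is large at these numbers of reads. In the annotation Il1b shares 25 of its 1907 exon bases with Il1bos on the other strand, and the strand setting of the counting is not given in the sources used here.

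Cd14 is the co-receptor that hands bacterial lipopolysaccharide to the Tlr4 complex. Its values were 2.05, 1.87 and 1.94 CPM in SH Sham and 3.44, 2.197 and 4.06 in SH SNA. EE Sham gave 1.80, 3.42 and 2.27 CPM and EE + SNA 3.20, 3.66 and 2.74. The SNA samples were all above the SH Sham samples, which lay close together, but EE Sham replicate 2 lay within the range of both SNA groups. The log2 fold change was 0.73 in SH SNA (standard error 0.24, unadjusted P = 0.00967, adjusted P = 0.0708) and 0.73 in EE + SNA (standard error 0.20, adjusted P = 0.0348), so that Cd14 rose in EE + SNA by the adjusted test and not in SH SNA. In SH SNA it was called in 2 of 15 alternatives, without the filter on low counts (adjusted P = 0.0268) and without SH SNA replicate 2 (log2 fold change 0.94, adjusted P = 0.0168). A call in 1 SNA group only is not evidence that the SNA groups differ. EE + SNA against SH SNA gave −0.0031, but the 95% interval (−0.530 to 0.523) is too wide to exclude a difference in either direction. The EE + SNA call was made in 7 of 15 alternatives, with adjusted P-values between 0.0179 and 0.127, and was lost without any 1 of the SH Sham samples or without EE + SNA replicate 1 or 2.

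Neither Toll-like receptor passed the test in any comparison. Tlr2, which recognises bacterial lipoproteins (chromosome 3, 83836272 to 83841767), had 7 to 34 reads per sample. Its values were 0.763, 1.58 and 1.14 CPM in SH Sham, 1.76, 1.01 and 1.35 in SH SNA, 0.632, 1.21 and 1.38 in EE Sham and 0.979, 0.827 and 2.74 in EE + SNA. The groups overlapped throughout, and EE + SNA replicate 3 stood apart from the other samples. The log2 fold change in EE + SNA against SH Sham was 0.33 with that sample and −0.37 without it, uncalled in either case. Tlr4, the lipopolysaccharide receptor (chromosome 4, 66827584 to 66930284), had 69 to 172 reads per sample and varied little. It gave 7.12 CPM ± 0.324 (SD, n = 3) in SH Sham, 6.25 ± 0.969 in SH SNA, 7.76 ± 0.863 in EE Sham and 6.99 ± 0.570 in EE + SNA. Its log2 fold change was −0.18 in SH SNA (95% interval −0.486 to 0.120) and −0.020 in EE + SNA (−0.302 to 0.263). A rise in Tlr4 of the size found for Tnfrsf12a lies outside these intervals, whereas the interval of Tlr2 in EE + SNA, −0.641 to 1.30, is wide.

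Myd88, the adaptor shared by Toll-like and IL1 receptors (chromosome 9, 119335934 to 119341411), was higher than SH Sham in each of the other groups. The values were 12.6, 13.7 and 13.4 CPM in SH Sham, 14.8, 17.3 and 16.4 in SH SNA, 14.9, 15.4 and 18.1 in EE Sham and 17.3, 16.7 and 19.3 in EE + SNA. No sample of these 3 groups fell within the SH Sham range. Myd88 rose in EE + SNA by 0.42 on the log2 scale (standard error 0.097, adjusted P = 0.0143), a call lost without SH Sham replicate 1 (adjusted P = 0.0564). In SH SNA the log2 fold change was 0.29 (unadjusted P = 0.0127, adjusted P = 0.0842) and in EE Sham 0.29 (unadjusted P = 0.0189, adjusted P = 0.9999), and neither was called after adjustment. Of its 2576 exon bases, 290 are shared with Acaa1a on the other strand, and reads there cannot be told apart if the counting did not use strand.

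Nfkbia encodes the inhibitor of NF-kB that NF-kB itself induces, and lies on chromosome 12 (55489410 to 55492647). It was read at 28.04, 34.6 and 26.8 CPM in SH Sham, 26.6, 27.3 and 30.2 in SH SNA, 18.2, 30.4 and 28.1 in EE Sham and 32.2, 28.6 and 34.8 in EE + SNA. The groups overlapped in each comparison, and EE Sham replicate 1 was the lowest of the 12 samples. The log2 fold change was −0.085 in SH SNA (95% interval −0.314 to 0.143) and 0.087 in EE + SNA (−0.140 to 0.314). Its difference between EE + SNA and SH SNA was 0.18 (unadjusted P = 0.0811) and the interaction of housing and surgery 0.39 (unadjusted P = 0.0764, adjusted P = 0.9999). The interaction moved with single EE Sham samples, to 0.19 without replicate 1 and 0.53 without replicate 2.

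**Figure D2:**
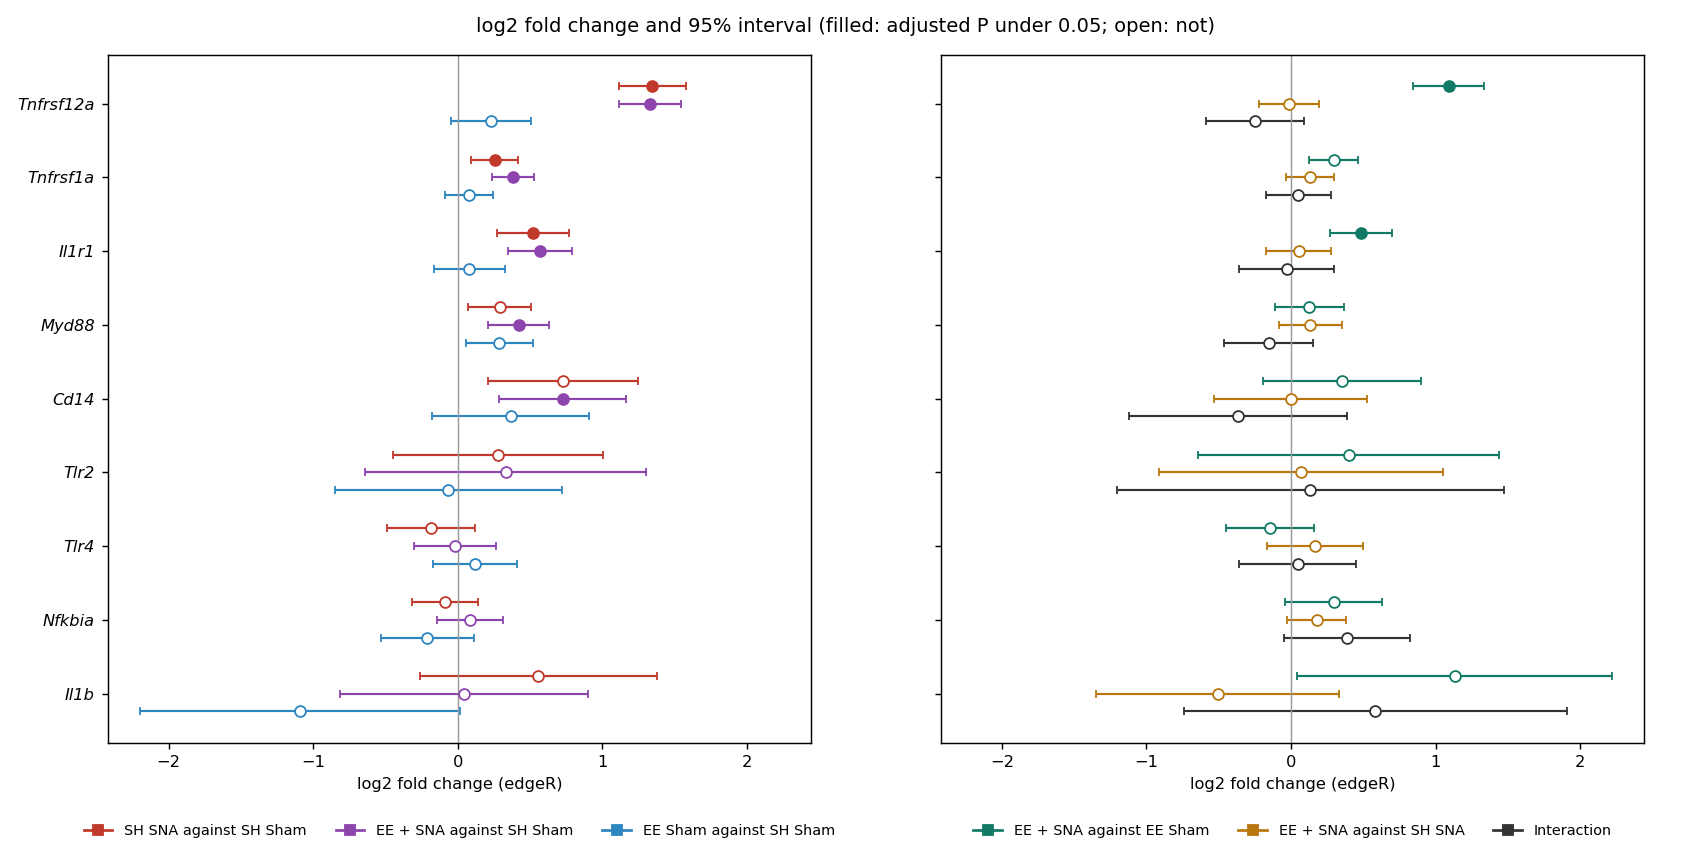
Log2 fold change (horizontal axis) of the 9 tested genes in 6 comparisons, with 95% intervals from the edgeR fit, each drawn in its own colour; filled circles have an adjusted P-value below 0.05. The filled circles against SH Sham are 3 genes for SH SNA and 5 for EE + SNA, and there are 0 in EE Sham against SH Sham, in EE + SNA against SH SNA and in the interaction.

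EE alone was addressed by comparing EE Sham with SH Sham, and 0 of the 9 genes passed the adjusted test in the edgeR fit or in the alternatives, DESeq2 and limma among them. Over all tested genes 0.00616% were called in this comparison, a single gene. By the unadjusted P-value 1 of the 9 genes, Myd88, was called, beside 2.97% of all tested genes, and Myd88 was also the only one whose groups did not overlap (7.61% of all tested genes, in either direction). The median log2 fold change of the 9 genes was 0.081, beside 0.0027 over all tested genes.

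Adding EE to SNA was addressed by comparing EE + SNA with SH SNA. Of the 9 genes 0 were called by edgeR at either threshold, 0 after adjustment in the alternatives, and 0 had groups that did not overlap, where 0% of all tested genes passed the adjusted threshold, 4.1% the unadjusted one and 10.4% did not overlap. The precision differed between genes. The log2 difference of Tnfrsf12a was −0.016 (95% interval −0.225 to 0.195), that of Il1r1 0.053 (−0.172 to 0.277), of Tnfrsf1a 0.13 (−0.037 to 0.299) and of Myd88 0.13 (−0.084 to 0.353). For Il1b it was −0.51 (−1.35 to 0.334) and for Tlr2 0.069 (−0.913 to 1.05), so that the intervals of these genes of few reads reach a 2-fold difference. The interaction, the test of whether the response to SNA depended on housing, called 0 of the 9 genes at either threshold in edgeR and 0 after adjustment in the alternatives, beside 0% of all tested genes after adjustment and 2.61% before. For Tnfrsf12a it was −0.25 (95% interval −0.587 to 0.091).

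Within EE, 2 of the 9 genes rose after SNA (Tnfrsf12a and Il1r1, given above) and 0 fell, against 2.51% of all tested genes that rose and 2.33% that fell. At the unadjusted threshold 4 were higher, beside 10.3% of all tested genes. Tnfrsf1a had a log2 fold change of 0.30 (standard error 0.078, unadjusted P = 0.00264, adjusted P = 0.0526) and was called in 6 of 15 alternatives. The log2 fold change of Myd88 was 0.13 (adjusted P = 0.559) and of Cd14 0.35 (adjusted P = 0.469) against EE Sham, and their groups overlapped. The groups did not overlap for Tnfrsf12a, Tnfrsf1a, Il1r1 and Il1b, 4 of 9 genes where 13.4% of all tested genes were separated in that direction. The call of Il1r1 was lost without EE Sham replicate 3 (adjusted P = 0.0853), EE + SNA replicate 1 (0.0562) or EE + SNA replicate 3 (0.0554).

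Levels between genes were compared by the deposited FPKM, which are per length of gene. By the median over 12 samples the order was Tnfrsf12a (20.3 FPKM), Nfkbia (18.0), Tnfrsf1a (17.9), Myd88 (6.19), Il1r1 (3.16), Cd14 (1.58), Tlr4 (1.28), Tlr2 (0.393), Il1b (0.314) and Tnf (0.0454). The ranges of the first 3 overlap, at 10.3 to 32.0, 11.2 to 22.1 and 15.2 to 21.5 FPKM, as do those of Il1r1 and Cd14, of Cd14 and Tlr4, of Tlr2 and Il1b and, narrowly, of Il1b and Tnf. The range of Myd88 (4.87 to 7.37) met neither that of Tnfrsf1a nor that of Il1r1 (2.36 to 4.23), and those of Tlr4 and Tlr2 did not meet. Thus Tnfrsf12a and Tnfrsf1a were read well above Tlr4 and Tlr2, and the cytokine genes Il1b and Tnf were lowest of the 10. The place of Tnfrsf12a depended on the group: it was 11.5 FPKM ± 1.084 (SD, n = 3) in SH Sham, below Nfkbia and Tnfrsf1a, and 28.8 ± 3.03 in SH SNA, above both.

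Among each other, Tnfrsf12a, Il1r1 and Tnfrsf1a had the highest correlations. Over the 12 samples the Pearson correlation of log2 CPM was 0.892 between Tnfrsf12a and Il1r1, 0.878 between Tnfrsf1a and Il1r1 and 0.855 between Tnfrsf12a and Tnfrsf1a. Cd14 and Myd88 correlated with these 3 at 0.6 to 0.718 and with each other at 0.411, beside 0.621 for Tlr2 and Nfkbia, which did not pass the test, whereas Tlr4 correlated negatively with each of the other tested genes (−0.241 to −0.597). These are descriptions, since the samples share the groups and sham and SNA samples stand apart. The tested genes whose pattern was most like that of Tnfrsf12a were E230016M11Rik (r = 0.990), Plekho1 (0.985) and Chac1 (0.985). For Il1r1 they were Rin1 (0.968), Scpep1 (0.958) and Dbf4 (0.954). The closest gene was Emp1 for Tnfrsf1a (0.976), Stat2 for Myd88 (0.895), Anks1 for Cd14 (0.926), Vcam1 for Tlr2 (0.893), Phc3 for Tlr4 (0.895), Cd9 for Nfkbia (0.915) and B4galt7 for Il1b (0.925).

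Promoter sequence from RefSeq (GRCm38.p6) was searched for 8 of the 10 genes, all but Tlr4 and Cd14. Of these, 3 are printed: Tnfrsf12a and Il1r1, which rose together, and Nfkbia, a gene that NF-kB is known to induce and that did not pass the test. The lines give the bases just upstream of the first annotated exon, 5′ to 3′ on the strand of the gene. Capitals mark a match to the NF-kB consensus on either strand. They stand for Tnfrsf12a at chr17:23677469-23677699 on the minus strand, for Il1r1 at chr1:40224830-40225079 on the plus strand and for Nfkbia at chr12:55492648-55492897 on the minus strand.
Tnfrsf12a: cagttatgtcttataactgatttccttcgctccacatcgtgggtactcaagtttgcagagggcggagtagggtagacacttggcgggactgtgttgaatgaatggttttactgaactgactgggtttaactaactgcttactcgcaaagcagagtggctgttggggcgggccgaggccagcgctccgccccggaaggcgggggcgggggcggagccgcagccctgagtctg
Il1r1: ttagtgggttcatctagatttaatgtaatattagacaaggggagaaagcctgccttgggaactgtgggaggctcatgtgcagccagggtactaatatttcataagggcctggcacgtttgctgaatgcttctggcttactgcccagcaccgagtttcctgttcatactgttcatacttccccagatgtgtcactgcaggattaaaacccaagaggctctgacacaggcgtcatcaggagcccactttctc
Nfkbia: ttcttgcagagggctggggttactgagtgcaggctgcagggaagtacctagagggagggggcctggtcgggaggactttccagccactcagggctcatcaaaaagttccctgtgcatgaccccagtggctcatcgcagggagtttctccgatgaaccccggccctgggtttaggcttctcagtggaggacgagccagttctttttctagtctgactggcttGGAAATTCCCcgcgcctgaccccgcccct

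The NF-kB consensus was found in the window of Nfkbia at −29 to −20 from the start, in that of Tlr2 at −173 to −164 and, overlapping it, at −172 to −163, and in a second annotated promoter of Il1r1 at −232 to −223. It occurs, on either strand, in 3.9% of the 32851 RefSeq promoters over the same 250 bases. Of the motifs TGANTCA for AP-1 (6.75% of promoters), TGACGTCA for the cAMP response element (1.55%) and TTCNNNGAA for STAT factors (7.02%), also searched on both strands, the last was found for Myd88 at −46 to −38 and for Tnfrsf1a at −244 to −236, and the others in no window of the 8 genes. The windows searched were not trimmed, so a match can lie in bases of an annotated exon. A match of letters is a description of sequence, and binding was not measured.

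The rest of the pathway was described with 125 further genes in 6 lists, of which 101 were tested. In SH SNA 11 rose and 2 fell, and in EE + SNA 14 rose and 3 fell, against SH Sham. Of all tested genes 6.06% rose and 5.17% fell in SH SNA and 6.87% and 5.63% in EE + SNA, so that the 101 genes together lay above the background in rises and below it in falls, without a test of that difference. Single lists did not all do so, and a count of 1 or 2 genes in a list below is near these shares. The median log2 fold change of the 101 genes was 0.14 and 0.21, beside 0.0047 over all tested genes. In EE Sham 0 of the 101 genes were called by edgeR after adjustment and 3 before, beside 2.97% of all tested genes before adjustment. In EE + SNA against SH SNA 0 were called after adjustment and 1 before, beside 4.1%.

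Of the TNF superfamily and its adaptors (24 tested genes), 2 rose in each SNA group. Tnfrsf1b, the gene of TNF receptor 2, went from 6.65 CPM ± 0.469 in SH Sham to 12.3 ± 1.62 in SH SNA and 11.6 ± 1.12 in EE + SNA (SD, n = 3), a log2 fold change of 0.89 (adjusted P = 0.000774) and 0.80 (adjusted P = 0.00156). Tnfrsf21, which encodes death receptor 6, rose by 0.28 and 0.23 on the log2 scale (adjusted P = 0.00427 and 0.0220). Ngfr, the gene of the p75 neurotrophin receptor, fell in EE + SNA by 0.28 on the log2 scale (adjusted P = 0.0431), with −0.20 in SH SNA (adjusted P = 0.170). Tnfsf12, the gene of TWEAK and named here after its values were seen because it is the ligand of Tnfrsf12a, had a log2 fold change of 0.20 in SH SNA (adjusted P = 0.272) and 0.30 in EE + SNA (adjusted P = 0.217). It shares 731 of 1515 exon bases with Tnfsfm13 on the same strand, so its counts are uncertain.

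Of the IL1 family and inflammasome genes (14 tested), 0 were called by edgeR in SH SNA after adjustment (0 to 1 over the alternatives) and 3 before, and in EE + SNA 1 rose. This was Il1rap, the accessory chain of the IL1 receptor, at 11.9 CPM ± 0.948 in SH Sham and 16.5 ± 2.43 in EE + SNA (SD, n = 3), a log2 fold change of 0.46 (adjusted P = 0.0269), with 0.21 in SH SNA (adjusted P = 0.266) and 0.25 between EE + SNA and SH SNA (adjusted P = 0.989). The antagonist Il1rn and the decoy receptor Il1r2, also named after their values were seen, had log2 fold changes of 1.01 and 0.78 in SH SNA with adjusted P-values of 0.175 and 0.166.

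Of the further Toll-like receptors and co-receptors (13 tested), 1 rose in each SNA group. Tlr7, a receptor of single-stranded RNA, rose in SH SNA from 1.81 CPM ± 0.118 to 2.88 ± 0.0584 (SD, n = 3), a log2 fold change of 0.67 (adjusted P = 0.0451), and had 0.22 in EE + SNA (adjusted P = 0.590). Lbp, the lipopolysaccharide binding protein, rose in EE + SNA by 0.64 on the log2 scale (adjusted P = 0.0150) and had 0.44 in SH SNA (adjusted P = 0.122). The direct differences between EE + SNA and SH SNA were −0.44 for Tlr7 and 0.20 for Lbp, each with an adjusted P of 0.989.

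Among adaptors and kinases (17 tested), 3 rose and 1 fell in SH SNA, and 6 rose and 2 fell in EE + SNA. Tab3, a subunit of the TAK1 kinase complex, fell by 0.32 on the log2 scale in SH SNA (adjusted P = 0.0200) and by 0.36 in EE + SNA (adjusted P = 0.0197). The 3 genes that rose in SH SNA, named after their values were seen, rose in both SNA groups. They were Mapk14, the kinase p38-alpha, by 0.35 in SH SNA and 0.28 in EE + SNA on the log2 scale (adjusted P = 0.00280 and 0.00816), its substrate Mapkapk2 by 0.31 and 0.35 (adjusted P = 0.0145 and 0.00729) and Tollip, an adaptor that limits Toll-like and IL1 receptor signaling, by 0.30 and 0.26 (adjusted P = 0.00226 and 0.0115). Map3k8, the kinase Tpl2, rose in EE + SNA by 0.86 (adjusted P = 0.0443), Irak3, an inhibitory member of the IL1 receptor kinases, by 0.45 (adjusted P = 0.0269) and Ticam1, the adaptor TRIF, by 0.38 (adjusted P = 0.0425). Their log2 fold changes in SH SNA were 0.60, 0.47 and 0.34, with adjusted P-values of 0.196, 0.132 and 0.0644.

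Of the NF-kB subunits, kinases and inhibitors (22 tested), 4 rose and 1 fell in SH SNA, and 3 rose and 0 fell in EE + SNA. Tnip2, an inhibitor of NF-kB activation, rose by 0.83 in SH SNA (adjusted P = 0.00303) and 0.75 in EE + SNA (adjusted P = 0.0166) on the log2 scale. Rela, the p65 subunit, rose by 0.27 and 0.37 (adjusted P = 0.0272 and 0.00532), and Bcl3, an IkB family protein that works in the nucleus, by 0.35 and 0.36 (adjusted P = 0.0449 and 0.0423). Cyld, a deubiquitinase that limits NF-kB signaling, fell by 0.25 on the log2 scale in SH SNA (adjusted P = 0.0310) and had −0.23 in EE + SNA (adjusted P = 0.0587). Of the NF-kB target genes (11 tested), 1 rose in each SNA group, the cytokine gene Il6, which injured neurons are known to express. Il6 went from 1.45 CPM ± 0.179 in SH Sham to 2.95 ± 0.505 in SH SNA and 3.65 ± 0.266 in EE + SNA (SD, n = 3), a log2 fold change of 1.02 (adjusted P = 0.0113) and 1.32 (adjusted P = 0.00145).

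**Figure D3:**
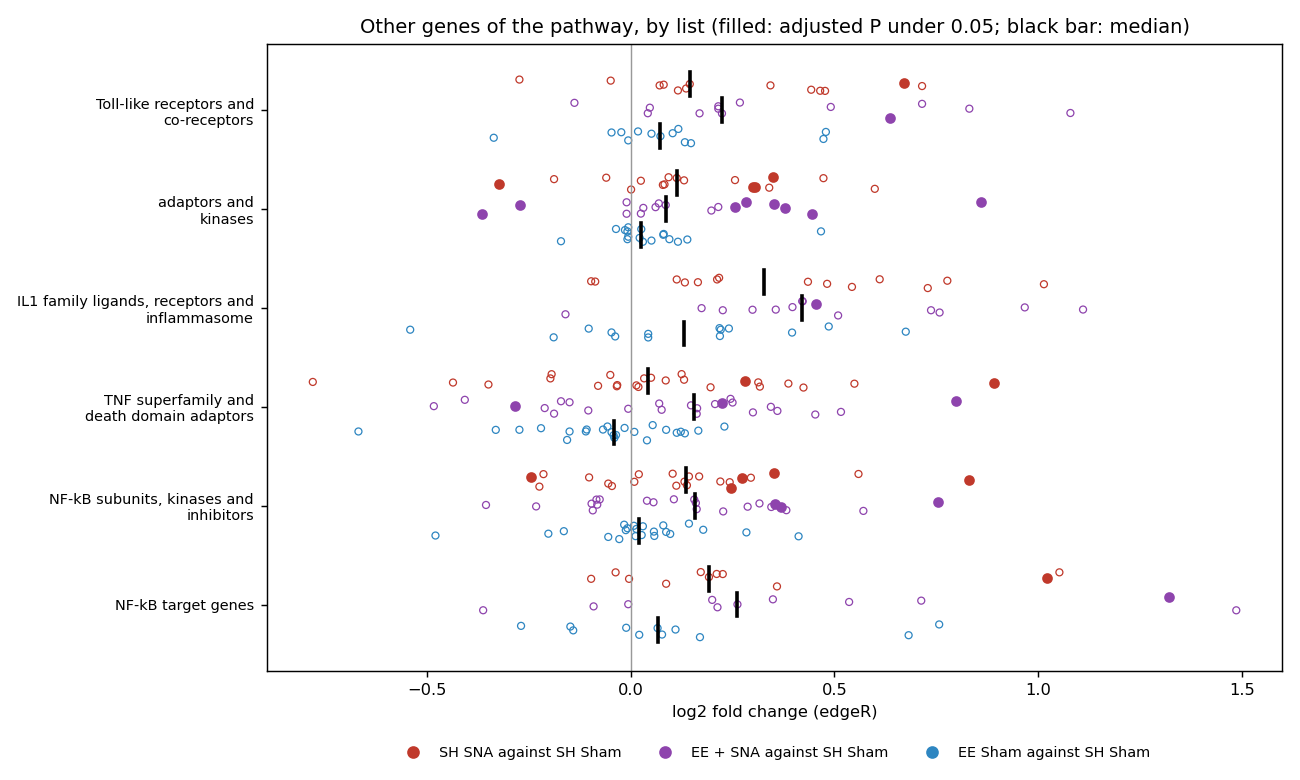
Log2 fold change against SH Sham (horizontal axis) of the 101 tested pathway genes in 6 lists, with 1 circle per gene and the colour giving the comparison; vertical places within a list are spread for sight only. Filled circles have an adjusted P-value below 0.05 and black bars are medians, which lie above 0 in each list for SH SNA and for EE + SNA.

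Some markers of macrophages and of red blood cells rose in both SNA groups against SH Sham. In EE + SNA 1 of 9 tested neutrophil genes and 2 of 5 monocyte genes rose, beside 6.87% of all tested genes. A count of 1 gene is near that share. The normalised read counts of 12 macrophage genes summed to 145.9 to 158.7 CPM in SH Sham, 169.1 to 229.9 in SH SNA, 138.1 to 173.9 in EE Sham and 184.4 to 297.7 in EE + SNA. Of the 12, 4 rose in SH SNA and 5 in EE + SNA, beside the 6.06% and 6.87% of all tested genes. These counts rested on single samples: with 1 sample left out, 1 to 6 rose in SH SNA (1 without SH Sham replicate 1 or SH SNA replicate 1 or 3, 2 without SH Sham replicate 3) and 1 to 5 in EE + SNA (1 without SH Sham replicate 1 or 3, 2 without EE + SNA replicate 3, 3 without EE + SNA replicate 1). Lyz2, a lysozyme gene on this list, rose by 0.47 and 0.80 on the log2 scale (adjusted P = 0.0106 and 0.0217), but by 0.41 in EE + SNA without replicate 3 (adjusted P = 0.00535). Its EE + SNA call was lost without SH Sham replicate 1 (adjusted P = 0.0934) or 3 (adjusted P = 0.0660). The macrophage markers Emr1 and Aif1 had log2 fold changes of 0.23 and −0.011 in SH SNA and −0.10 and 0.020 in EE + SNA and did not pass the test.

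Blood cell markers had wider ranges. The counts below stand beside 6.06% of all tested genes that rose in SH SNA and 6.87% in EE + SNA. Before adjustment 13.4% and 14.7% of all tested genes were higher. The 3 red blood cell genes read, Hba-a1, Hba-a2 and Alas2, summed to 113.9 to 184.3 CPM in SH Sham, 189.8 to 515.7 in SH SNA, 110.8 to 307.1 in EE Sham and 175.1 to 595.2 in EE + SNA. Of these 2 rose in SH SNA and 3 in EE + SNA, with a median log2 fold change of 1.076 and 1.086. With 1 sample left out, 0 to 3 rose in SH SNA (0 without SH Sham replicate 1 or 3, 1 without SH Sham replicate 2 or SH SNA replicate 3), and in EE + SNA 3 rose without replicate 2 and 0 were called by edgeR after adjustment without any other sample. The sum of 10 neutrophil genes was 72.9 to 190.7 CPM in SH Sham, 120.8 to 315.2 in SH SNA, 96.4 to 227.6 in EE Sham and 153.8 to 740.4 in EE + SNA, and of 9 tested 0 were called by edgeR in SH SNA (4 before adjustment, and 0 to 5 after it with 1 sample left out) and 1 rose in EE + SNA (0 to 8 with 1 sample left out, 8 without EE + SNA replicate 2). The sum of 5 inflammatory monocyte genes ran from 38.2 to 69.4 CPM in SH Sham, 47.3 to 111.7 in SH SNA, 52.7 to 87.2 in EE Sham and 65.4 to 160.9 in EE + SNA, and 0 were called by edgeR in SH SNA (2 before adjustment, and 0 to 2 after it with 1 sample left out) and 2 rose in EE + SNA (0 to 4 with 1 sample left out, 0 without SH Sham replicate 1 or 3). The neutrophil and monocyte sums of both SNA groups overlapped those of SH Sham. EE + SNA replicate 3, the sample with the highest Tlr2, had the highest sum of neutrophil genes, 740.4, and of red blood cell genes, 595.2. It also had the highest sums of macrophage (297.7), monocyte (160.9), Schwann cell (12240), lymphocyte, fibroblast and endothelial genes. Its sums of sensory neuron, satellite glia and axotomy response genes were not the highest. No marker of the macrophage, red blood cell, neutrophil and monocyte lists was at 0 in a sample.

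The part of these cells in the values of the 10 genes was not tested. Without EE + SNA replicate 3, the same number of the 9 genes, 5, was called in EE + SNA against SH Sham, and Cd14 had a log2 fold change of 0.82 (adjusted P = 0.0235). Leaving it out took the median log2 fold change of the neutrophil genes from 1.503 to 0.35 and that of the red blood cell genes from 1.086 to 0.47. In either list 0 genes were then called by edgeR after adjustment. The medians of the macrophage genes (0.4067 to 0.2468), monocyte genes (1.2004 to 0.5436) and Schwann cell genes (0.3345 to 0.1747) also fell but stayed positive. In these lists 2, 1 and 3 genes still rose. Whether such cells account for the calls among the 9 genes was not tested. Without SH SNA replicate 3, the sample of 515.7 CPM, 2 of the 9 genes were called in SH SNA in place of 3, and the median of the red blood cell genes went from 1.076 to 0.50. Schwann cell genes summed to 7302 to 8866 CPM in SH Sham, 7795 to 11370 in SH SNA, 6513 to 9037 in EE Sham and 9423 to 12240 in EE + SNA. Sensory neuron genes summed to 13960 to 14970, 12780 to 13650, 13160 to 13760 and 12590 to 13150 CPM in the same order.

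**Figure D4:**
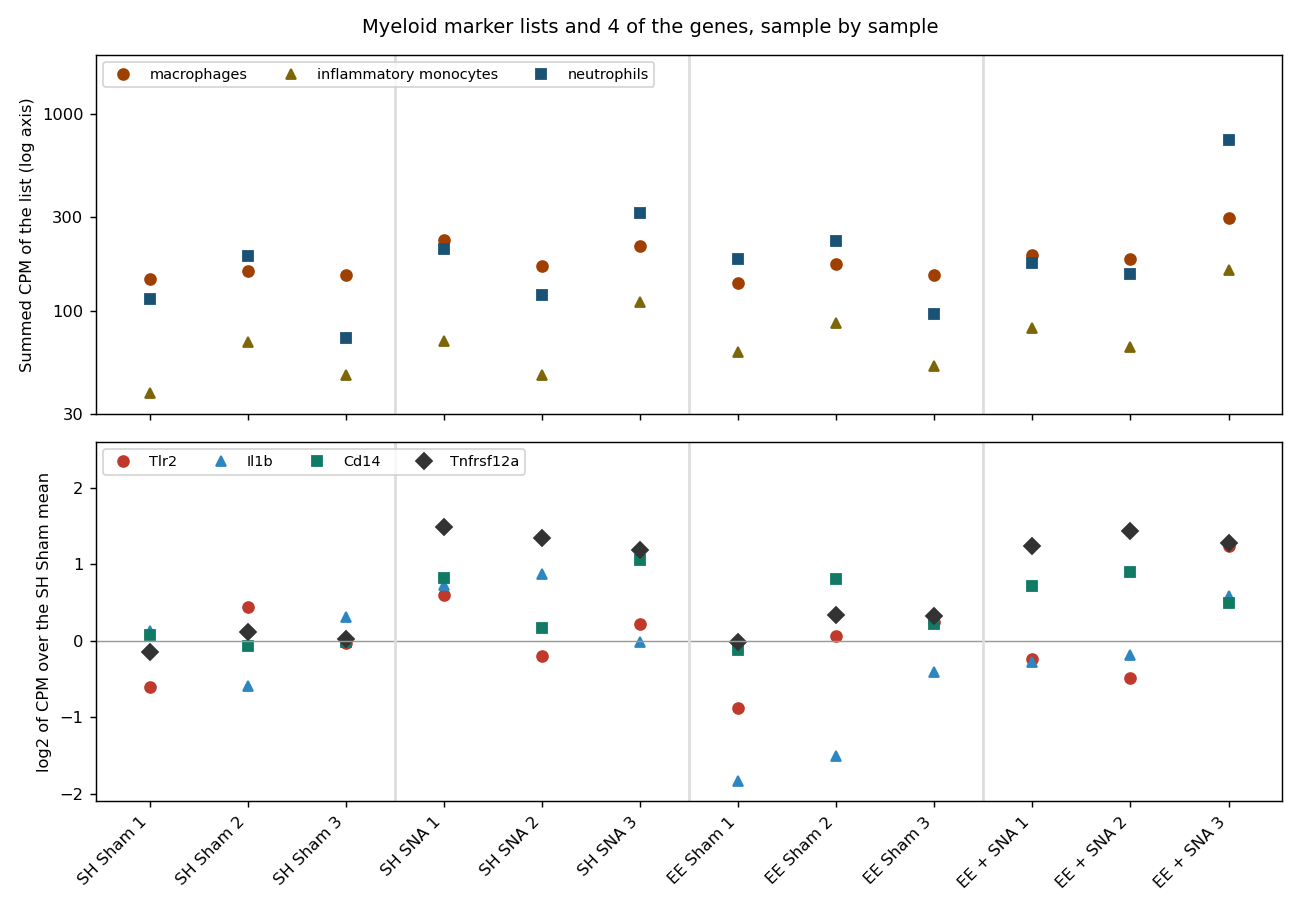
Upper panel: summed CPM (log axis) of the macrophage, inflammatory monocyte and neutrophil genes in each of the 12 samples; lower panel: log2 of the CPM of Tlr2, Il1b, Cd14 and Tnfrsf12a over their SH Sham mean in the same samples. EE + SNA replicate 3 has the highest sum of each list shown (740.4 CPM for the neutrophil genes) and the highest Tlr2 (2.74 CPM). Tnfrsf12a lies more than 1 log2 unit above its SH Sham mean in each SNA sample.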

How the data were processed

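RNAseq of mouse DRG was analysed in 12 samples, 3 per group. The authors made TruSeq mRNA libraries, sequenced paired ends on an Illumina HiSeq, aligned to mm10 and counted with HTSeq. The submitters' processing notes list TopHat2 2.0.12, Bowtie2 2.2.3, SAMtools 0.1.19 and HTSeq 0.6.0. The deposited counts are whole reads per gene name, not normalized, with 5 further HTSeq summary lines that were left out (46.7% to 47.6% of reads in no gene). The deposited FPKM are the authors' values per gene length and library total, and were used for levels between genes and for an alternative.

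TMM scaling in edgeR 4.0.16 (R 4.3.3) was applied to the counts, which were filtered with filterByExpr (10 counts, total of 15), which left 16238 genes. Each comparison was fitted on its 6 samples, and the interaction on 12, with the two-sided quasi-likelihood F test. Standard errors were taken as the log2 fold change over the square root of F. Replicates are pools of 2 mice, and their counts differed by more than counting error (chi-square per degree of freedom 3.86 to 8.51). Count limits cover counting error only. Alternatives were the likelihood ratio test, DESeq2 1.42.0, scaling by library size only, no filter, at least 10 counts in every sample, a joint fit of 12 samples, a block for replicate number, and limma 3.58.1 on log2 of FPKM plus 1 or plus 0.1, besides leaving out each sample in turn.

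The 10 genes and the lists were chosen with earlier results of these data known. The genes named beside the 10 are up to 4 per list called after adjustment with the widest log2 difference, in either direction, for an SNA group against SH Sham, and up to 3 genes per member with the highest Pearson correlation over 12 samples among genes of at least 1 CPM. Genes were placed on GRCm38 with GENCODE vM21. Promoters came from RefSeq, without bases in annotated exons. Figures were drawn with Matplotlib 3.10.9.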

Additional observations from a re-analysis of the deposited data

How the results depend on the processing

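Tnfrsf12a in its 3 SNA comparisons with sham groups, and Tnfrsf1a and Il1r1 in EE + SNA against SH Sham, were called after adjustment in 15 of 15 alternatives. No called value of the 9 genes changed sign, and of 843 values under alternatives 36, uncalled throughout, did. At the unadjusted threshold EE Sham gave 1 of the 9 genes and 2 with the likelihood ratio test, with 12 samples in 1 fit and with limma on either FPKM scale, and 3 without the filter. The interaction gave 1 in place of 0 without the filter. Of the 101 wider pathway genes, EE + SNA against SH Sham called 17, with 9 and 8 by limma (plus 1 and plus 0.1), and EE + SNA against EE Sham called 7, with 13 by the likelihood ratio test, 14 without the filter, 12 with 12 samples in 1 fit and 1 with limma on either scale. The cause of these shifts was not tested. With scaling by library size only, 48.7% of all genes called in SH SNA were higher in place of 54%, and in EE + SNA 48.8% in place of 54.9%, while the median of all genes moved to −0.0097 and −0.013.

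Deviations from the group means were correlated between samples of compared groups. For EE Sham and SH Sham, same-numbered samples gave 0.079 to 0.337 and differently numbered ones −0.346 to 0.194. For EE + SNA and SH SNA these ranges were 0.07 to 0.126 and −0.114 to 0.04. Pairing by number was therefore not excluded between housing groups of the same surgery. In the comparisons of SNA with sham, the lowest same-numbered values were −0.247 to −0.145. The main tests did not take the numbers as pairs. With the replicate block, EE Sham gave 3 of the 9 genes before adjustment, EE + SNA against SH Sham gave 11 wider pathway genes, Tnfrsf1a in SH SNA had an adjusted P of 0.0635 and Cd14 in EE + SNA one of 0.0755.

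Leaving out each sample in turn, the genes called after adjustment among the 9 ranged from 1 to 4 in SH SNA (1 without SH Sham replicate 1 or SH SNA replicate 1), 3 to 5 in EE + SNA against SH Sham (3 without SH Sham replicate 1) and 1 to 3 against EE Sham (1 without EE Sham replicate 3 or EE + SNA replicate 1 or 3). At the unadjusted threshold the range was 0 to 3 in EE Sham, with 0 without SH Sham replicate 1 and 3 without EE Sham replicate 1, 0 to 1 in EE + SNA against SH SNA and 0 to 1 in the interaction. The wider pathway ranged from 6 to 13 in SH SNA (6 without SH Sham replicate 1 or SH SNA replicate 1, 8 without SH SNA replicate 3), from 8 to 21 in EE + SNA against SH Sham (8 without EE + SNA replicate 1, and 11 with either SH Sham replicate 1 or 2 left out) and from 1 to 9 against EE Sham (1 or 2 without EE Sham replicate 1 or 3 or EE + SNA replicate 1 or 3). Depth limits Tnf, Il1b and Tlr2, whose reads per sample were at most 3, 14 and 34.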
